A study of Mus musculus with 191 samples.

Results

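The comparison described here asked what antibody treatment against neutrophils did to the bone marrow transcriptome early in the light phase. It used the 6 bone marrow libraries collected at Zeitgeber time 1 (ZT1, 1 h after lights on), of 191 libraries in the whole study, and all 14289 genes that passed an expression filter. Of these libraries, 3 came from mice given anti-Ly6G (clone 1A8) and 3 from mice given control IgG, and each library was made from 1 mouse. Both groups were wild-type C57BL/6 mice that received 3 µg of antibody per g of body weight for 2 days and were sampled on day 3. The labels give neither age nor sex for these groups. They also say that some mice were held in cabinets with the light cycle inverted by 12 h, without saying which, so cabinet and ZT cannot be told apart here. The same treatments were sampled at 5 other times (ZT 5, 9, 13, 17 and 21, again 3 mice per treatment), and these 30 libraries are used here to estimate the spread and to show where ZT1 differs. The labels state that the fall of neutrophils in blood was checked by cell counts, which are not analysed here; the marrow itself was not counted.

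Ly6G is a surface protein of mouse neutrophils, and the antibody removes or masks the cells that carry it. Neutrophils are made in the bone marrow, where promyelocytes fill azurophil granules with myeloperoxidase and serine proteases, myelocytes and metamyelocytes then fill specific and gelatinase granules, and mature cells are held back until chemokine signals release them into blood in a daily rhythm. Nearly all cells also carry a circadian clock, in which BMAL1 with CLOCK or NPAS2 activates the genes of the PER, CRY and REV-ERB repressors through E-box sequences. PAR-bZIP factors such as DBP, TEF and HLF are outputs of that loop. In bulk tissue, a change in the number of cells of a type and a change of RNA per cell cannot be told apart.

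Promoter windows of RefSeq (GRCm38.p6, 250 bases before to 50 bases after each annotated start) were found for 45 of 50 genes named by rule, and were searched on both strands for the E-box CACGTG, the cyclic AMP response element (CRE) TGACGTCA and the AP-1 site TGANTCA. The CRE was present in windows of 4 of these genes (Dio2, Ggt1, Hlf and Zbtb11), which is 4 of their 65 windows, and in 1.79% of all 32851 windows. The E-box was present for 12 genes (14 of the 65 windows), among them 6 clock genes (Bhlhe41, Ciart, Cipc, Cry1, Per1 and Tef), and in 7.15% of all windows. The AP-1 site was present for 3 genes (4 of the 65 windows) and in 7.81% of all windows. A gene with several windows has more chances of a match, so only the counts of windows compare with the shares of all windows. A match describes the letters in a window and nothing more. The windows below belong to 3 genes that rose at ZT1 and carry a CRE, and to the clock gene Per1. Capitals mark the E-box or CRE, and each sequence runs 5′ to 3′.
Hlf, chr11:90390868-90391167, minus strand: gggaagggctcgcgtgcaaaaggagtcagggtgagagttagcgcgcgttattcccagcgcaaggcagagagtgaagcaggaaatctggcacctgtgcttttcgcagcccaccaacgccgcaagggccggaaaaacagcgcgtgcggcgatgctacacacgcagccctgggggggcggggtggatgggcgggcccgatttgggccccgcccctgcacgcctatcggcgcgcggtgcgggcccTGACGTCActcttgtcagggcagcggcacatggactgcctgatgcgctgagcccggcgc
Dio2, chr12:90738989-90739288, minus strand: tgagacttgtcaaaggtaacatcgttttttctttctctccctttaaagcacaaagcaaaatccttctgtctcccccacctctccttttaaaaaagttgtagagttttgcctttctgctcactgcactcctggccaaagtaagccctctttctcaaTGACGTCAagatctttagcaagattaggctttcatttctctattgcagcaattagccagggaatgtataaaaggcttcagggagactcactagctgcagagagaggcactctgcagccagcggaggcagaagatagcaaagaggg
Zbtb11, chr16:55973554-55973853, plus strand: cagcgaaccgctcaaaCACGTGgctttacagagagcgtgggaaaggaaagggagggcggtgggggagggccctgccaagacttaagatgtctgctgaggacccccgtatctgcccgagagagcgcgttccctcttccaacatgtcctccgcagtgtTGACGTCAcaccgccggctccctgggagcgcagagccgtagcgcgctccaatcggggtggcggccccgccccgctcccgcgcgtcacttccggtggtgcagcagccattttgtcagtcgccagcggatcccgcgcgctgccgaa
Per1, chr11:69098699-69098998, plus strand: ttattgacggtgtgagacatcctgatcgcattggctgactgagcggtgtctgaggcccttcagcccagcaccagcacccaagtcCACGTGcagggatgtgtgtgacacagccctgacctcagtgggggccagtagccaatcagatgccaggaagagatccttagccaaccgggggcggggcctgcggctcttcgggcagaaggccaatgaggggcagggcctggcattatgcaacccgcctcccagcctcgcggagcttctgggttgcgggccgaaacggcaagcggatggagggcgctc

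At ZT1 the marrow of anti-Ly6G mice held more transcript of azurophil granule proteins, of several receptors and enzymes of myeloid cells, and of the clock genes Per3 and Hlf. It held less transcript of the small nucleolar RNA host gene Snhg1 and of ferritin heavy chain (Fth1). The sizes were modest. Of 14289 genes, 141 were higher with anti-Ly6G (0.987%) and 23 were lower (0.161%) at an adjusted p under 0.05 by limma, 1.15% in either direction. Among the called genes, 25 of the 141 and 4 of the 23 differed by more than 1.5-fold, and the median log2 differences were 0.43 and -0.37. The 3 anti-Ly6G values lay wholly on one side of the 3 IgG values for all 164 called genes, as they did for 25.3% of all genes tested. At an unadjusted p under 0.05, 2484 genes (17.4%) differed.

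**Figure D1:**
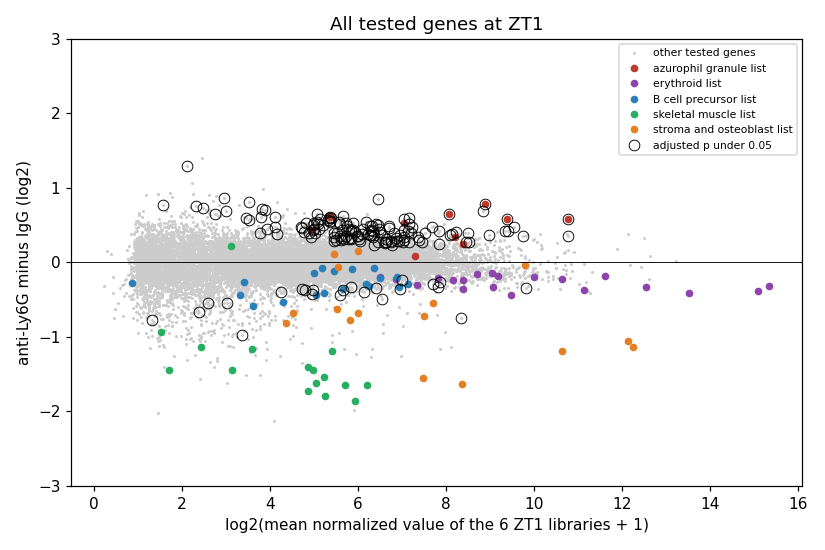
Each point is a gene, with the log2 of its mean normalized value plus 1 over the 6 ZT1 libraries on the horizontal axis and the log2 difference of anti-Ly6G minus IgG on the vertical axis. Coloured points are members of 5 gene lists and black rings are genes with an adjusted p under 0.05; azurophil granule genes lie above 0, erythroid and B cell precursor genes below 0, and 15 of 16 skeletal muscle genes below 0 without a ring.

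The number of calls rested on every one of the 6 libraries. Leaving out anti-Ly6G replicate 1, 2 or 3 gave 2, 82 and 5 genes higher, with 1, 16 and 0 lower. Leaving out IgG replicate 1, 2 or 3 gave 8, 40 and 2 genes higher, with 1, 7 and 0 lower. Per3 and Alas1 were called in all 6 of these fits. Transcripts of skeletal muscle were also lower with anti-Ly6G at ZT1, with a list median of -1.45. The list medians at the other times had no single sign, at 0.58, -1.04, 0.06, -0.50 and -0.63 at ZT 5, 9, 13, 17 and 21. At ZT1 the 16 listed muscle markers summed to between 72.8 and 358 normalized units in anti-Ly6G marrow and between 355 and 937 units in IgG marrow. Tnnt3 (fast troponin T) was 5.98, 38.5 and 43.1 in anti-Ly6G marrow, against 134, 94.5 and 43.7 in IgG marrow, a log2 difference of -1.85 (SE 0.65; adjusted p = 0.14 by limma). Anti-Ly6G replicate 1 held the least muscle transcript, and none of the 16 muscle genes was called. With the library mean of the muscle list as a covariate in the fit, a setting chosen after the data were seen, 0 genes were called in either direction and 1553 had an unadjusted p under 0.05. The median difference of the azurophil list was 0.52 with this covariate against 0.55 without it. That of the core clock list was 0.029 with it against 0.194 without it. Whether carried-over muscle has a part in any single gene's difference was not tested beyond that fit.

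Bone and stromal transcripts varied too, in another order among the IgG mice. Markers of stroma and osteoblasts summed to between 5185 and 12570 units in anti-Ly6G marrow and between 9229 and 27880 units in IgG marrow, with Bglap (osteocalcin) at 75.3, 270 and 128 units in anti-Ly6G marrow against 223, 407 and 868 units in IgG marrow. Those groups overlapped, and the difference did not pass (log2 -1.63, SE 0.67; adjusted p = 0.204 by limma). Car3, a carbonic anhydrase abundant in fat and muscle, was 22.3, 70.1 and 46.2 units in anti-Ly6G marrow against 65.5, 99.9 and 161 units in IgG marrow. It too did not pass (log2 -1.27; adjusted p = 0.113 by limma). With the stroma and osteoblast list as a covariate, again added after the data were seen, 101 genes were higher and 56 lower, and 95 of these calls were shared with the fit without it. The bone marrow markers Mpo, Elane, S100a8, Hbb-bs, Cd79a and Igll1 were all present in all 6 libraries, the lowest value being that of Igll1 at 12.7 units.

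**Figure D2:**
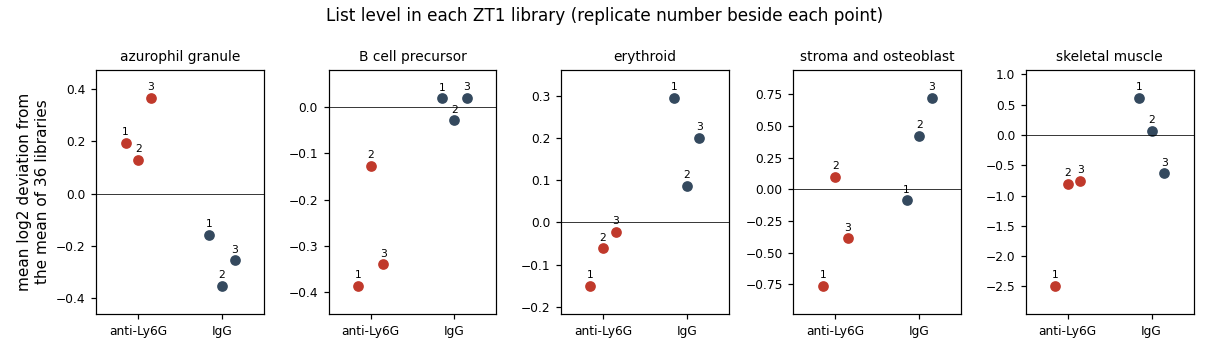
Mean log2 deviation of each gene list from its mean over 36 bone marrow libraries, for each ZT1 library, with the replicate number beside each point. Anti-Ly6G libraries lie above IgG libraries for the azurophil list and below them for the B cell precursor and erythroid lists; anti-Ly6G replicate 1 is lowest for the skeletal muscle list, and the 2 treatments overlap for the stroma and osteoblast list.

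Of 10 azurophil granule genes, 5 rose and 0 fell, all 10 differences were positive, and the median log2 difference was 0.55 against -0.005 over all genes tested. Of all genes tested, 0.987% rose and 0.161% fell. Prtn3 (proteinase 3; ENSMUSG00000057729, GRCm38 chromosome 10, 79874476 to 79883174) was 599, 514 and 676 normalized units in anti-Ly6G marrow, against 364, 311 and 356 units in IgG marrow. All 3 anti-Ly6G mice were above all 3 IgG mice, and Prtn3 was 1.73-fold higher (log2 0.79, SE 0.16; adjusted p = 0.0225 by limma). Elane, which encodes neutrophil elastase and lies just downstream of Prtn3 (chromosome 10, 79886247 to 79888215), was 816, 729 and 861 units in anti-Ly6G marrow, against 561, 485 and 557 units in IgG marrow (log2 0.59, SE 0.13; adjusted p = 0.0242 by limma). Mpo, the myeloperoxidase gene on chromosome 11 (87793581 to 87804413), was 2142, 1961 and 2230 units in anti-Ly6G marrow, against 1413, 1357 and 1452 units in IgG marrow. Its lowest anti-Ly6G value exceeded its highest IgG value by more than the range inside either group (log2 0.58, SE 0.12; adjusted p = 0.0225 by limma).

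Cathepsin G (Ctsg, chromosome 14) was 296, 302 and 379 units in anti-Ly6G marrow and 223, 188 and 208 units in IgG marrow (log2 0.65, SE 0.16; adjusted p = 0.039 by limma). Prss57, which encodes the granule protease NSP4 and lies on the same stretch of chromosome 10 as Prtn3 (79781474 to 79790961), was 46.1, 46.8 and 52.8 units in anti-Ly6G marrow and 32.1, 30.8 and 31.3 units in IgG marrow (log2 0.61, SE 0.12; adjusted p = 0.0225 by limma). Both separated the groups completely. Ms4a3, a membrane gene of granulocyte and monocyte progenitors, was at 0.53 (adjusted p = 0.0785), and Cst7, which encodes an inhibitor of cathepsins, was at 0.43 (adjusted p = 0.0699), so neither passed by limma. Serglycin (Srgn), the proteoglycan that packs granule proteins, was at 0.25 (adjusted p = 0.231), and the elastase inhibitor gene Serpinb1a was at 0.34 (adjusted p = 0.185). The median of the list stayed between 0.48 and 0.60 when any 1 library was left out, but the number called was 0 in 5 of these 6 fits and 4 without anti-Ly6G replicate 2.

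**Figure D3:**
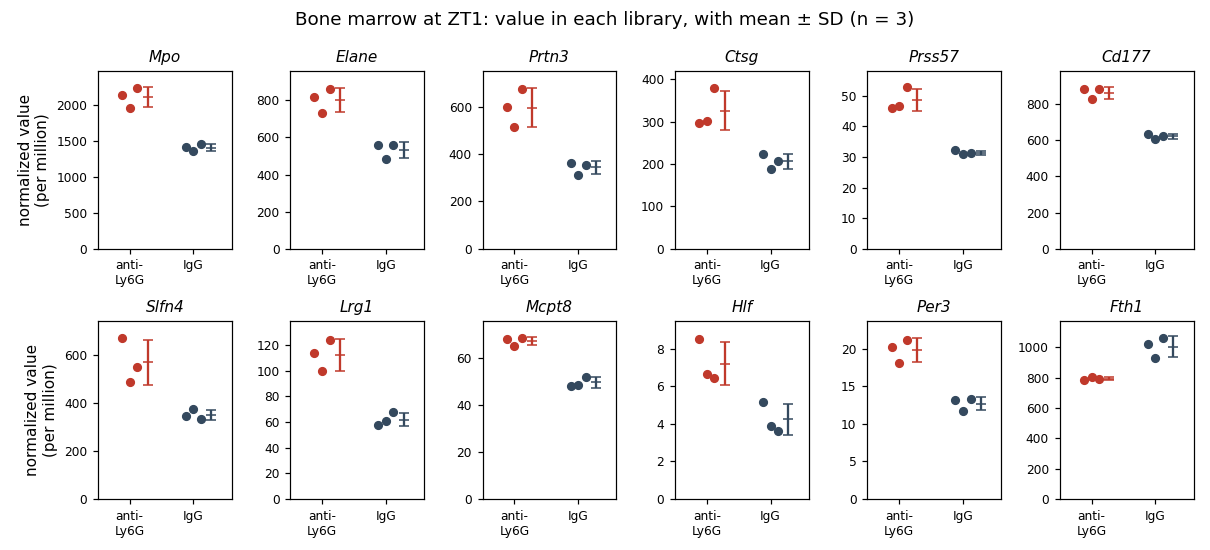
Normalized value of 12 genes in each ZT1 library (points) with the mean and SD of each group (n = 3), anti-Ly6G in red on the left and IgG in dark blue on the right. All anti-Ly6G points lie above all IgG points for 11 genes, and below them for Fth1.

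Genes of later granules and of mature neutrophils held 1 call a list, where 0.987% of all genes tested rose. Of 18 specific and gelatinase granule genes 1 rose, Cd177, and the median was 0.33, with 16 positive. The number called in this list was 8 with array weights or without ZT13, 6 with the 6 ZT1 libraries alone, and 0 when any 1 ZT1 library was left out; no test compared it with the azurophil list. Cd177 encodes a surface partner of proteinase 3. It was 884, 825 and 881 units in anti-Ly6G marrow and 634, 608 and 623 units in IgG marrow (log2 0.47, SE 0.12; adjusted p = 0.0411 by limma). Lactoferrin (Ltf) was 5222, 4516 and 5488 units in anti-Ly6G marrow and 4123, 3855 and 3640 units in IgG marrow, which did not pass (log2 0.39; adjusted p = 0.0985 by limma). Lipocalin 2 (Lcn2) was at 0.38 (adjusted p = 0.153), Ngp at 0.33 (adjusted p = 0.212) and Camp, the cathelicidin gene, at 0.14 (adjusted p = 0.625). Of 25 tested mature neutrophil genes 1 rose, the interferon-inducible Slfn4, at 671, 489 and 551 units in anti-Ly6G marrow and 345, 376 and 333 units in IgG marrow (log2 0.69, SE 0.17; adjusted p = 0.0411 by limma).

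S100a8, an abundant alarmin gene of neutrophils, was 6005, 6516 and 7247 units in anti-Ly6G marrow and 6870, 5671 and 6069 units in IgG marrow. Its groups overlapped (log2 0.09; adjusted p = 0.832 by limma). Ly6g, the gene of the antibody's target, overlapped as well, with 115, 119 and 140 units in anti-Ly6G marrow and 129, 107 and 110 units in IgG marrow (log2 0.11, SE 0.14; adjusted p = 0.723 by limma). Cxcr2, the receptor that draws neutrophils out of the marrow, was at 0.21 (adjusted p = 0.441), and the G-CSF receptor gene Csf3r was at -0.10 (adjusted p = 0.747). None of these 4 differences passed, which does not show that the levels were alike.

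Among 17 genes of granulocyte progenitors and their regulators, 1 rose (Hlf, described with the clock) and 15 were positive, with a median of 0.24. The share that rose over all genes tested was 0.987%. Cebpe, the transcription factor gene of the promyelocyte to myelocyte step, was 112, 118 and 114 units in anti-Ly6G marrow and 89.2, 86.8 and 87.7 units in IgG marrow. These values did not overlap, yet the difference stayed short of the threshold (log2 0.38, SE 0.10; adjusted p = 0.061 by limma). Gfi1, a repressor needed for neutrophil formation, was at 0.37 (adjusted p = 0.113), and Cebpa, which opens the granulocyte programme, at 0.27 (adjusted p = 0.259). 

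The largest rises named by rule included several myeloid genes outside the granule lists. Ggt1, gamma-glutamyltransferase of glutathione breakdown, was 5.51, 3.63 and 6.30 units in anti-Ly6G marrow and 1.41, 1.498 and 1.52 units in IgG marrow (log2 1.29, SE 0.29; adjusted p = 0.0328 by limma). Lrg1, a secreted glycoprotein stored in neutrophil granules, was 114, 99.5 and 124 units in anti-Ly6G marrow and 57.5, 60.5 and 67.7 units in IgG marrow (log2 0.85, SE 0.18; adjusted p = 0.0242 by limma). Bcl3, a nuclear inhibitor-of-kappa-B family member, was 18.1, 15.0 and 16.9 units in anti-Ly6G marrow and 9.30, 10.8 and 9.07 units in IgG marrow (log2 0.72, SE 0.14; adjusted p = 0.0164 by limma). In all 3 genes the lowest anti-Ly6G mouse was above the highest IgG mouse.

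Ptges, the gene of microsomal prostaglandin E synthase, was 5.95, 6.39 and 5.45 units in anti-Ly6G marrow and 4.35, 2.42 and 3.00 units in IgG marrow (log2 0.73, SE 0.16; adjusted p = 0.0269 by limma). Dio2, which encodes the deiodinase that makes active thyroid hormone and whose promoter window is shown above, was 17.9, 14.02 and 20.6 units in anti-Ly6G marrow and 9.81, 11.8 and 9.19 units in IgG marrow (log2 0.71, SE 0.16; adjusted p = 0.0325 by limma). Both were low in every IgG mouse relative to every anti-Ly6G mouse. The other genes of the 15 named rises were Tgm1 (a transglutaminase, log2 0.86), Kcnh7 (a potassium channel, 0.81), Slc25a27 (a mitochondrial carrier, 0.77), Nrg2 (a neuregulin, 0.75), Tmem150b (0.69) and Plppr3 (0.65), with adjusted p between 0.0119 and 0.0451 by limma. Plppr3 (chromosome 10, 79860475 to 79874634) overlaps the annotated start of Prtn3 (79874476). Whether reads of Prtn3 enter the value of Plppr3 was not tested. Among the 15 named rises, the alternative settings that lost the call ran from 4 of 27 (Plppr3) to 15 of 26 (Slc25a27). For Nrg2 the call was lost in 13 of 27.

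Several receptors and signalling genes were also called, and the ones given here were picked after their values had been seen. Csf2rb, the shared receptor chain for GM-CSF, interleukin 3 and interleukin 5, was 184, 158 and 174 units in anti-Ly6G marrow and 105, 127 and 109 units in IgG marrow (log2 0.60, SE 0.12; adjusted p = 0.0237 by limma). Its neighbour and close copy Csf2rb2 was at 0.54 (adjusted p = 0.0411), and reads shared between the 2 copies make their separate values uncertain. Jak3, a kinase of cytokine receptors, was at 0.58 (adjusted p = 0.0242), Ikbke at 0.60 (adjusted p = 0.0225) and the inflammasome gene Nlrc4 at 0.59 (adjusted p = 0.0411), all by limma. Alas1, the first enzyme of heme synthesis outside red cells, was 168, 145 and 162 units in anti-Ly6G marrow and 107, 103 and 105 units in IgG marrow (log2 0.59, SE 0.09; adjusted p = 0.00416 by limma). This had the smallest adjusted p of the genes described here, whereas its red cell counterpart Alas2 overlapped between groups (log2 -0.22; adjusted p = 0.414 by limma).

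Hdc, the histamine-forming enzyme gene, was also picked after its value had been seen. It was 205, 148 and 173 units in anti-Ly6G marrow and 116, 127 and 131 units in IgG marrow (log2 0.48, SE 0.12; adjusted p = 0.0444 by limma). Among 17 genes of eosinophils, basophils and mast cells 1 rose, the basophil protease gene Mcpt8, at 68.0, 65.4 and 68.8 units in anti-Ly6G marrow and 48.2, 48.8 and 52.2 units in IgG marrow (log2 0.43, SE 0.11; adjusted p = 0.0459 by limma). The eosinophil peroxidase gene Epx was at 0.43 without passing (adjusted p = 0.383 by limma). The complement gene C3 was 875, 702 and 779 units in anti-Ly6G marrow and 566, 626 and 554 units in IgG marrow (log2 0.43; adjusted p = 0.0411 by limma). It was the 1 call among 15 tested Fc receptor and complement genes, of which 14 were positive, with a median of 0.15. Nkg7, a membrane gene of cytotoxic granules, was at 0.49 (adjusted p = 0.0447 by limma). It was the 1 call among 15 T and NK cell genes. Of these 9 were positive, with a median of 0.11 and a lowest difference of -0.52. Of 18 hypoxia and glycolysis genes 2 rose, Ero1l, the oxidase of disulfide bond formation (log2 0.44; adjusted p = 0.0242 by limma), and Pfkp, a phosphofructokinase (0.35; adjusted p = 0.0411 by limma), with 15 of 18 positive and a median of 0.26. For each of these lists, the share that rose over all genes tested was 0.987%.

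The genes that fell were fewer. Fth1, ferritin heavy chain, which stores iron, was 782, 803 and 790 units in anti-Ly6G marrow and 1019, 928 and 1063 units in IgG marrow. It was lower in every anti-Ly6G mouse (log2 -0.34, SE 0.07; adjusted p = 0.0262 by limma), and was the 1 call among 12 iron genes. Of all genes tested, 0.161% fell. Snhg1, a host gene of small nucleolar RNAs, was 53.2, 62.9 and 63.8 units in anti-Ly6G marrow and 84.2, 73.0 and 80.1 units in IgG marrow (log2 -0.40, SE 0.09; adjusted p = 0.0325 by limma). Snhg5 and Gas5, also hosts of small nucleolar RNAs, fell by 0.37 (adjusted p = 0.047) and 0.30 (adjusted p = 0.0411) on the log2 scale by limma; Gas5 was picked after its value had been seen, and Snhg5 lost its call in 15 of 27 alternative settings.

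Pno1, a factor that trims the small ribosomal subunit, fell by 0.37, and Xrcc6, the Ku70 gene of DNA end joining, fell by 0.35, with adjusted p of 0.0464 and 0.0342 by limma. Arrdc3, an arrestin-domain gene, was 80.0, 76.9 and 74.1 units in anti-Ly6G marrow and 106, 115 and 107 units in IgG marrow (log2 -0.50, SE 0.11; adjusted p = 0.0328 by limma). Sphk1, a kinase that makes sphingosine 1-phosphate, was at -0.43 (adjusted p = 0.0447), and the cilium genes Bbs12 and Lztfl1 were at -0.55 (adjusted p = 0.0459) and -0.39 (adjusted p = 0.039). The largest named fall was that of Fam195a, at 2.87, 2.79 and 3.55 units in anti-Ly6G marrow and 5.50, 5.47 and 5.26 units in IgG marrow (log2 -0.66, SE 0.15; adjusted p = 0.0344 by limma). The remaining named falls were Slc26a1 (a sulfate transporter, log2 -0.54), Svbp (-0.42), Eef1e1 (-0.37), Hspbp1 (-0.36) and Minpp1 (-0.35). Among the 15 named falls, the call was lost in 5 (Fth1) to 16 (Bbs12) of 27 alternative settings. It was lost in 14 for Slc26a1, Pno1, Eef1e1 and Minpp1, in 13 for Sphk1 and Svbp, and in 6 for Snhg1.

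Igkc, the constant segment of the kappa light chain, was 231, 277 and 209 units in anti-Ly6G marrow and 329, 445 and 440 units in IgG marrow (log2 -0.75, SE 0.18; adjusted p = 0.0411 by limma); it lies outside the naming rule and was picked after its value had been seen. Jchain, which joins secreted antibodies in plasma cells, was 59.7, 75.6 and 55.6 units in anti-Ly6G marrow and 100, 136 and 134 units in IgG marrow without passing (log2 -0.94, SE 0.29; adjusted p = 0.09 by limma). All 20 B cell precursor genes had negative differences with a median of -0.29, but 0 were called. The number called lower was 4 with the 6 ZT1 libraries alone, 2 without ZT13 and 1 with array weights. In 13 of the 20 the anti-Ly6G values lay wholly below the IgG values, against 11.8% of all genes. Igll1, of the surrogate light chain, was 12.7, 20.2 and 12.9 units in anti-Ly6G marrow and 20.8, 22.0 and 23.4 units in IgG marrow (log2 -0.53; adjusted p = 0.136 by limma), and Cd79a, of the antigen receptor, was at -0.30 (adjusted p = 0.191). Anti-Ly6G replicate 2 was the closest to the IgG mice for Igll1.

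The erythroid list held no call. All 20 erythroid genes had negative differences, against 7337 of all 14289 genes. Their median was -0.23, against -0.005 over all genes. In 14 of 20 the anti-Ly6G values lay wholly below IgG, against 11.8% of all genes. Klf1, the erythroid transcription factor gene, was at -0.30 (adjusted p = 0.159 by limma), with its groups apart. The 12 heme synthesis genes of the red cell pathway had a median of -0.22, and 0 of them were called. With the stroma and osteoblast covariate the medians were -0.376 for the erythroid and -0.353 for the heme list. In the erythroid list 3 genes were called lower with that covariate, with array weights, with the 6 ZT1 libraries alone and without ZT13.

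Protein synthesis genes leaned the same way with small sizes. So did oxidative phosphorylation genes (median -0.17, 4 of 78 positive) and proteasome genes (median -0.12, 3 of 38 positive). The 82 cytosolic ribosomal protein genes tested had a median of -0.18 with 2 positive, and the 14 ribosome biogenesis genes a median of -0.14 with 0 positive, and 0 of either list were called. The anti-Ly6G values lay wholly below IgG in 3 of the 82 and 8 of the 14, against 11.8% of all genes. The library means of the ribosomal protein list overlapped between groups. The ribosomal protein median was -0.111 without anti-Ly6G replicate 1 and -0.268 without IgG replicate 2, -0.108 with the length trend removed and -0.098 with the muscle covariate. Nucleophosmin (Npm1) was 445, 528 and 556 units in anti-Ly6G marrow and 740, 602 and 642 units in IgG marrow (log2 -0.38; adjusted p = 0.0816 by limma). The median exon length was 5806 nt for the genes that rose, 3022 nt for those that fell and 4243.5 nt for all tested. Across 14258 genes the rank correlation of the ZT1 difference with exon length was 0.169, a description over genes that share the same 6 libraries, and it was -0.127 at ZT5, 0.165 at ZT13 and -0.139 at ZT21. Genes were also split into terciles of exon length. The median log2 deviation of the longest tercile minus that of the shortest was 0.09, 0.05 and 0.00 in the anti-Ly6G libraries. It was -0.07, 0.05 and -0.08 in the IgG libraries, so the groups overlapped. With the length trend removed from each library, an alternative added after the data were seen, 165 genes were higher and 11 lower, and 138 calls were shared.

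**Figure D4:**
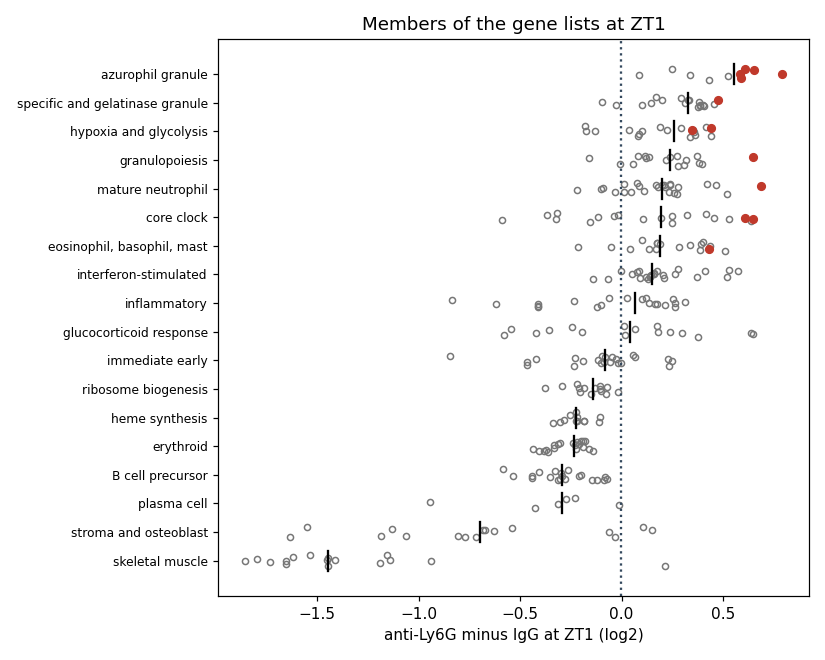
Log2 difference of anti-Ly6G minus IgG at ZT1 for each tested member of 18 gene lists; filled red points passed an adjusted p under 0.05, open points did not, black bars are list medians and the dotted line is the median of all genes (-0.005). The azurophil list has the highest median (0.55) of the lists drawn and the skeletal muscle list the lowest (-1.45).

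The clock list held 2 of the calls. Of 19 tested core clock genes 2 rose, Per3 and Hlf, and 0 fell, against 0.987% of all genes tested higher and 0.161% lower. Per3, a PER family member (ENSMUSG00000028957, chromosome 4, 151003652 to 151044665), was 20.3, 18.1 and 21.2 units in anti-Ly6G marrow and 13.1, 11.7 and 13.3 units in IgG marrow (log2 0.61, SE 0.10; adjusted p = 0.00453 by limma). Hlf, a PAR-bZIP factor gene that is also a mark of blood stem cells (chromosome 11, 90336536 to 90390895), was 8.52, 6.66 and 6.42 units in anti-Ly6G marrow and 5.19, 3.89 and 3.65 units in IgG marrow (log2 0.65, SE 0.15; adjusted p = 0.0342 by limma). The groups did not overlap for either gene. With the skeletal muscle list as a covariate neither gene was called, and the median of the clock list was 0.029 against 0.194 without it.

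Nr1d2 (REV-ERB beta) was 15.7, 19.4 and 15.0 units in anti-Ly6G marrow and 11.9, 11.7 and 12.0 units in IgG marrow, apart but short of the threshold (log2 0.45, SE 0.13; adjusted p = 0.0713 by limma). Per1, whose E-box window is shown above, was 23.5, 26.9 and 18.5 units in anti-Ly6G marrow and 12.7, 15.9 and 14.4 units in IgG marrow (log2 0.64, SE 0.28; adjusted p = 0.239 by limma). Dbp overlapped, with 1.81, 3.03 and 2.96 units in anti-Ly6G marrow and 1.30, 1.21 and 1.95 units in IgG marrow (log2 0.53; adjusted p = 0.246 by limma). Tef was at 0.25 (adjusted p = 0.25) and Nfil3, the repressor that opposes the PAR-bZIP factors, at 0.42 (adjusted p = 0.151). The activator genes had the other sign without passing. Arntl, which encodes BMAL1, was 17.4, 18.6 and 18.1 units in anti-Ly6G marrow and 22.1, 22.3 and 23.8 units in IgG marrow (log2 -0.32; adjusted p = 0.245 by limma), Npas2 was at -0.59 (adjusted p = 0.153) and Clock at -0.16 (adjusted p = 0.481). Cry1 (0.10), Cry2 (-0.12), Per2 (0.25), Nr1d1 (0.32), Ciart (0.19), Bhlhe40 (-0.04), Bhlhe41 (-0.32) and Cipc (-0.02) overlapped between groups; Rora was at -0.37 (adjusted p = 0.385) with its groups apart.

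The lists of immediate early, inflammatory, glucocorticoid-response and interferon-stimulated genes held no call at ZT1. Fos, an immediate early gene, was 7.43, 6.44 and 5.40 units in anti-Ly6G marrow and 10.5, 12.1 and 14.4 units in IgG marrow, just short of the threshold (log2 -0.84, SE 0.22; adjusted p = 0.0529 by limma). Il1b, the interleukin 1 beta gene, was 15.3, 13.2 and 17.8 units in anti-Ly6G marrow and 23.9, 28.2 and 33.0 units in IgG marrow (log2 -0.84, SE 0.25; adjusted p = 0.0932 by limma). Il1rn, its receptor antagonist, was at -0.41 (adjusted p = 0.0765). All 3 were lower in every anti-Ly6G mouse than in every IgG mouse. None of 22 immediate early, 20 inflammatory, 16 glucocorticoid-response or 24 interferon-stimulated genes was called. At an unadjusted p under 0.05 by limma they held 6, 6, 5 and 5 genes, against 17.4% of all genes tested. Tsc22d3 (GILZ), a glucocorticoid-induced gene, was 82.5, 102 and 80.0 units in anti-Ly6G marrow and 52.3, 46.6 and 70.5 units in IgG marrow (log2 0.65; adjusted p = 0.15 by limma), and Oasl2 was at 0.57, with anti-Ly6G replicate 1 the highest at 74.9 units (adjusted p = 0.164).

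The same contrast at the other times called 33 genes higher (0.231%) and 30 lower (0.21%) at ZT5, 3 higher (0.021%) and 16 lower (0.112%) at ZT9, and 646 higher (4.52%) and 233 lower (1.63%), or 6.15% in either direction, at ZT13. It called 0 higher and 2 lower (0.014%) at ZT17 and 17 higher (0.119%) and 4 lower (0.028%) at ZT21. No library is shared between times. At ZT13, anti-Ly6G replicate 1 stood apart from replicates 2 and 3. Its mean log2 deviation was 0.79 for the mature neutrophil list, against 0.01 and -0.07. For the erythroid list it was -0.68, against -0.09 and -0.14. Whether the ZT13 counts, or the overlaps and correlation with ZT13 given below, rest on this library was not tested. Of the 141 genes higher at ZT1, 99 were also called higher at ZT13, which is 70.2% of the ZT1 list and 15.3% of the ZT13 list, and 10 at ZT21. Of the 23 lower at ZT1, 10 were also called lower at ZT13 (43.5% and 4.29% of the lists). The sign was the same at all 5 other times for 102 of the 141, against 1164 of all 6952 genes with a positive ZT1 difference, and for 5 of the 23, against 883 of all 7337 genes with a negative one. The 5 of 23 rest on few genes, and whether that share differs from the share of all genes was not tested. Across 14289 genes the ZT1 difference had Pearson correlations of 0.567 with ZT13, 0.386 with ZT9, 0.277 with ZT21, 0.106 with ZT17 and 0.006 with ZT5, a description of genes measured in the same libraries.

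The 5 azurophil genes called at ZT1 all passed at ZT13 and ZT21 as well, and none of them passed at ZT5, ZT9 or ZT17. Prtn3 differed by 0.65 at ZT5, 0.36 at ZT9, 0.69 at ZT13, 0.68 at ZT17 and 0.84 at ZT21 on the log2 scale, passing at ZT13 (adjusted p = 0.0101) and ZT21 (adjusted p = 0.0255) by limma. The ZT1 difference minus the mean of the other 5 was 0.14 for Prtn3 and 0.09 for Mpo (adjusted p = 0.913 and 0.929 by limma). The list medians were 0.42, 0.27, 0.52, 0.46 and 0.62 at ZT 5, 9, 13, 17 and 21.

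**Figure D5:**
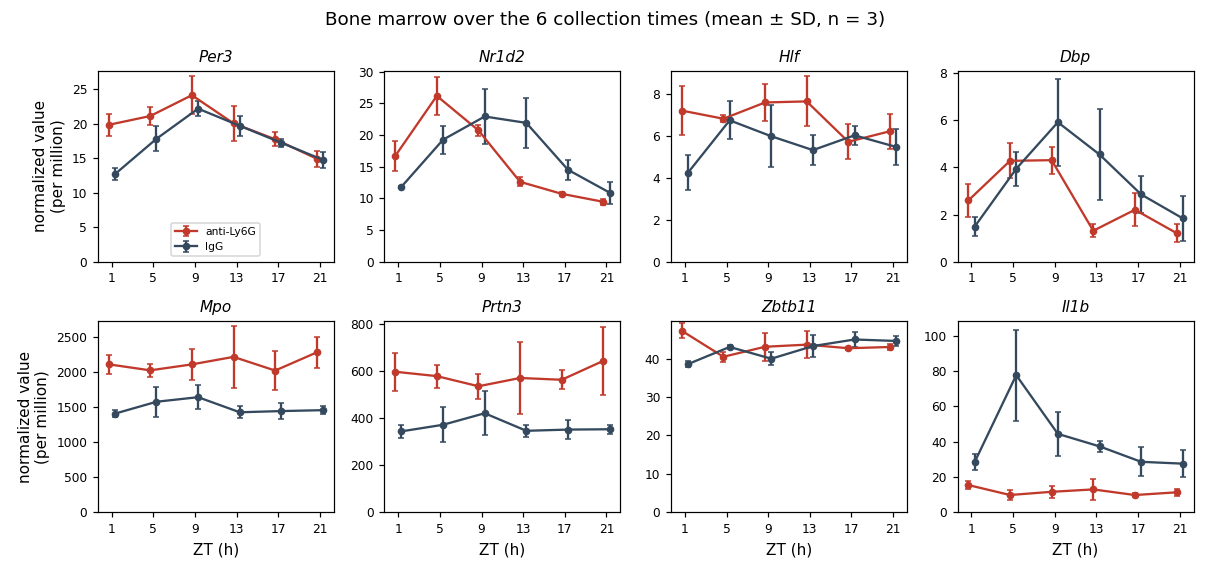
Mean and SD (n = 3) of the normalized value of 8 genes at each ZT (h) in anti-Ly6G (red) and IgG (dark blue) marrow. Mpo and Prtn3 lie higher with anti-Ly6G at all 6 times, Per3 lies apart at ZT1 and close together from ZT13 on, and Nr1d2 and Dbp are higher at ZT1 and lower at ZT13 with anti-Ly6G.

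Tested directly, the ZT1 difference departed from the mean of the other times for 0 genes at an adjusted p under 0.05 by limma and 0 by voom; 798 genes (5.58%) and 831 genes had an unadjusted p under 0.05. The smallest adjusted p was 0.399. The smallest unadjusted p belonged to Per3, whose difference was 0.61 at ZT1 and 0.24, 0.11, 0.02, 0.04 and 0.02 at ZT 5, 9, 13, 17 and 21 (departure 0.52, SE 0.11; adjusted p = 0.399 by limma). For Nr1d2 the differences were 0.45 at ZT1 and 0.42, -0.12, -0.74, -0.40 and -0.18 at the later times, of which ZT13 passed (adjusted p = 0.00138 by limma). Its departure of 0.66 had an adjusted p of 0.399 as for Per3, and it was the 1 gene called with the stroma and osteoblast list as a covariate (0.83; adjusted p = 0.000481 by limma). Dbp ran the same course, at 0.53 at ZT1 and -1.21 at ZT13, where it fell (adjusted p = 0.00354 by limma). Zbtb11, a zinc finger gene that rose at ZT1 (47.2 ± 1.91 in anti-Ly6G marrow and 38.6 ± 0.76 in IgG marrow, SD, n = 3 each; log2 0.29, adjusted p = 0.0277 by limma), lay between -0.09 and 0.10 at the other times (departure 0.30, adjusted p = 0.492).

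For Il1b the ZT1 difference was the smallest of the 6 times. Its log2 difference of -0.84 at ZT1 stood beside -2.85 at ZT5, -1.85 at ZT9, -1.53 at ZT13, -1.43 at ZT17 and -1.19 at ZT21, and it fell at each of these 5 times (adjusted p between 4e-08 and 0.0443 by limma). In IgG marrow Il1b averaged 28.4 units at ZT1 and 77.7 units at ZT5. The ZT1 difference was smaller than the mean of the others by 0.93, which did not pass after adjustment over all genes (p = 0.00221 unadjusted, adjusted p = 0.85 by limma). Fos fell at ZT5 by 1.99, at ZT9 by 1.21 and at ZT13 by 1.45 on the log2 scale. It was at -0.74 at both ZT17 and ZT21 without passing (adjusted p = 0.482 and 0.178 by limma), beside -0.84 at ZT1. For Fos the ZT1 difference was therefore not the smallest.

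Recovered read totals were 16.8 to 18.7 M per library in anti-Ly6G marrow and 15.9 to 20.2 M in IgG marrow, with means of 18.0 M each. Pairs of the 6 libraries correlated at 0.981 to 0.994 over genes, and the median SD of a gene on the log2 scale was 0.108 in anti-Ly6G marrow.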

How the data were processed

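RNA was sequenced from bone marrow of mice (200 ng of total RNA, NEBNext Ultra, HiSeq2500, 50 nt single reads, per the labels' protocols). The submitters' processing notes name CASAVA 1.8, cutadapt 1.7.1, RSEM 1.7.1 and limma 3.46, while the extract protocol names RSEM 1.2.20 and Kallisto 0.43.1 with Ensembl 84; the normalization and the gene filter are not given in the sources used here. The deposited table holds a normalized signal per gene, on a scale of about 1e+06 per library. Multiplying each column by 0.5 over its minimum and subtracting 0.5 gave values with at most 2 decimals, of which 30.2% to 38.7% were whole (tolerance 0.005), so the authors' signal behaves as scaled expected counts and no count test was used. These recovered totals are the depth quoted, 12.0 to 23.4 M (M, 1e+06 reads) over 36 libraries.

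Groups came from the labels, and replicates were numbered in accession order. Values were taken as log2(value + 1) in R 4.3.3, and fold changes are on that scale, which understates changes of low genes. Of 16335 genes, 14289 with a mean of at least 1 over the 36 libraries were tested with limma 3.58.1 (12 group means, 24 residual degrees of freedom, mean-variance trend), two-sided, with Benjamini-Hochberg adjustment and a threshold of 0.05. Symbols are those of the table, and coordinates come from GENCODE M21 (GRCm38), which matched 16278 identifiers. The script was tested on simulated data. Strand use in counting is not given in the sources used here.

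Genes named are the 15 largest rises and 15 largest falls among called genes with groups apart, without unnamed models, immunoglobulin and T cell receptor segments, small RNAs, mitochondrial genes and pseudogenes; the 3 smallest p of ZT1 minus the other times; Ly6g and the core clock list; and from each of 40 lists up to 5 called members or 3 others. Further genes were picked after values were seen, and are list members given for context or are so marked. The members and the gene lists were chosen with earlier results of these data known. A sum of a list adds the normalized values of its members.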

Additional observations from a re-analysis of the deposited data

How the results depend on the processing

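Of the results per gene, 3147 values kept their direction and their side of the threshold across the alternatives, 566 lost a call, 73 gained one and 6 changed sign. Counts of genes higher and lower with anti-Ly6G were 422 and 194 with array weights, 46 and 5 without the mean-variance trend, and 206 and 77 with the 6 ZT1 libraries alone. With a filter at a mean of 4, 35 were lower. Leaving other times out of the estimate of spread gave 88 higher without ZT 5, 53 and 5 without ZT 9, 360 and 116 without ZT 13, 68 and 8 without ZT 17, and 86 and 10 without ZT 21. Leaving out 1 ZT1 library gave 2 to 82 higher and 0 to 16 lower. Alternatives added after the data were seen gave 212 higher with the GC trend removed, 11 lower with the length trend removed, 0 and 0 with the skeletal muscle list as a covariate, and 56 lower with the stroma and osteoblast list as a covariate, which also called 1 gene (Nr1d2) in ZT1 minus the other times; that count was 0 in the other alternatives. Pseudocounts, no filter, quantile and median-of-ratios scaling, voom and a robust trend kept the counts within 1.5 times, and no scaling moved the median of all genes by more than 0.1. The cause of these changes was not tested. The value of Bhlhe40 at ZT1, log2 anti-Ly6G minus IgG, ranged over -0.0935 to 0.0205 when 1 library was left out, changing sign without IgG replicate 2 (0.0169) or anti-Ly6G replicate 3, and was 0.0488 with the stroma covariate. The value of Cipc at ZT1, log2 anti-Ly6G minus IgG, ranged over -0.0421 to 0.0051, changing sign without anti-Ly6G replicate 1, and was 0.0016 with the GC trend removed and 0.0241 with the stroma covariate. Without 1 library, the remaining 2 are assumed to vary like the other groups. No paired analysis was possible because the labels give the bone marrow libraries no replicate number shared between treatments. Depth limits low genes most, since 1 read equals 0.0431 to 0.0821 units.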
